A study of Drosophila melanogaster with 4 samples.

Results

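The interior of chromosome arm 3R of Drosophila melanogaster was described through its clusters of H3K9me1 enrichment. It was bounded by position alone, on FlyBase release 5: 3R 2830001 to 26905053, without 12480001 to 12810000, the stretch that holds the bithorax complex (BX-C) of Hox genes. That leaves 23.7 Mb in 2 stretches, 9.65 Mb on the centromere side of BX-C and 14.1 Mb on its telomere side. A cluster belonged to the interior when it was typed as enriched and its midpoint lay within these bounds. By this rule the interior held 3114 of the 15404 clusters of replicate 1, 2908 of the 14643 of replicate 2 and 4433 of the 21525 of the list made for the whole series. These are 20.2%, 19.9% and 20.6% of each list.

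The material was nuclei from heads of mixed adult flies of the wild-type Oregon-R strain (Oregon-R-modENCODE). The labels give 2 ChIP libraries, made with an H3K9me1 antibody marked new lot 2, and 2 input libraries, each pair numbered 1 and 2. All were wild type with no treatment named. Flies came from population cages, so each library pools many animals, and the labels state neither sex nor separate cages for the replicates. The spread between replicates may therefore be technical. The lists hold no expression values, so the labelled tissue was not checked against markers. In a pool of cell types, fewer cells with the mark and less of it per cell cannot be told apart.

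H3K9me1 is a histone H3 with a single methyl group on a lysine of its tail. The more highly methylated forms of the same lysine are bound by heterochromatin protein HP1 and are known from the heterochromatin around fly centromeres and along much of chromosome 4. The monomethylated form is the product of the initial methylation step and can also arise by demethylation. Arm interiors such as that of 3R are mostly gene-rich euchromatin.

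No cluster crossed the outer bounds of the interior in either replicate. The cluster closest inside the centromere-side bound was at 2867483 to 2868816 in replicate 1 and at 2866626 to 2868812 in replicate 2. The closest outside it were at 2827594 to 2828932 in replicate 1 and 2738414 to 2742640 in replicate 2. On the telomere side the last clusters inside were 26880958 to 26884530 and 26890482 to 26891841, and the first outside were 26916669 to 26918064 and 26907390 to 26908949, in replicates 1 and 2 each time. In each list 1 cluster crossed the centromere-side border of BX-C and had its midpoint inside the interior.

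H3K9me1 clusters were spread over the whole interior, and no 100 kb window was without one in either replicate. Coverage, the percent of bases under clusters, was 36.1% in replicate 1 and 32.0% in replicate 2, a mean of 34.0 ± 2.92% (SD, n = 2), or 8.08 ± 0.693 Mb. There were 131 clusters per Mb in replicate 1 and 122 in replicate 2, a mean of 127 ± 6.13 (SD, n = 2). The stretch on the centromere side of BX-C was covered to 33.7 ± 3.02% and the one on the telomere side to 34.2 ± 2.85% (SD, n = 2). Within each library the telomere side was slightly higher, at 36.3% against 35.9% in replicate 1 and 32.2% against 31.6% in replicate 2. The number of reads behind a cluster is unknown, so a base without a cluster is a base without a call. No gene was assigned to a position, since the genes at hand are placed on a later assembly.

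Coverage varied widely from window to window, and the same windows were dense or sparse in both replicates. The interior was divided into 236 full windows of 100 kb, counted from the start of each stretch. Their coverage ran from 1.40% to 72.8% in replicate 1, with a median of 36.0%, and from 1.36% to 74.6% in replicate 2, with a median of 31.4%. The middle of the distribution was broad: the 25th and 75th percentiles were 25.3% and 47.7% in replicate 1 and 21.1% and 42.0% in replicate 2. The SD over windows was 15.2 and 14.5 percentage points, or 14.8 ± 0.504 (SD, n = 2). The most populated band was 30% to 40%, with 55 windows in replicate 1 and 60 in replicate 2.

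**Figure D1:**
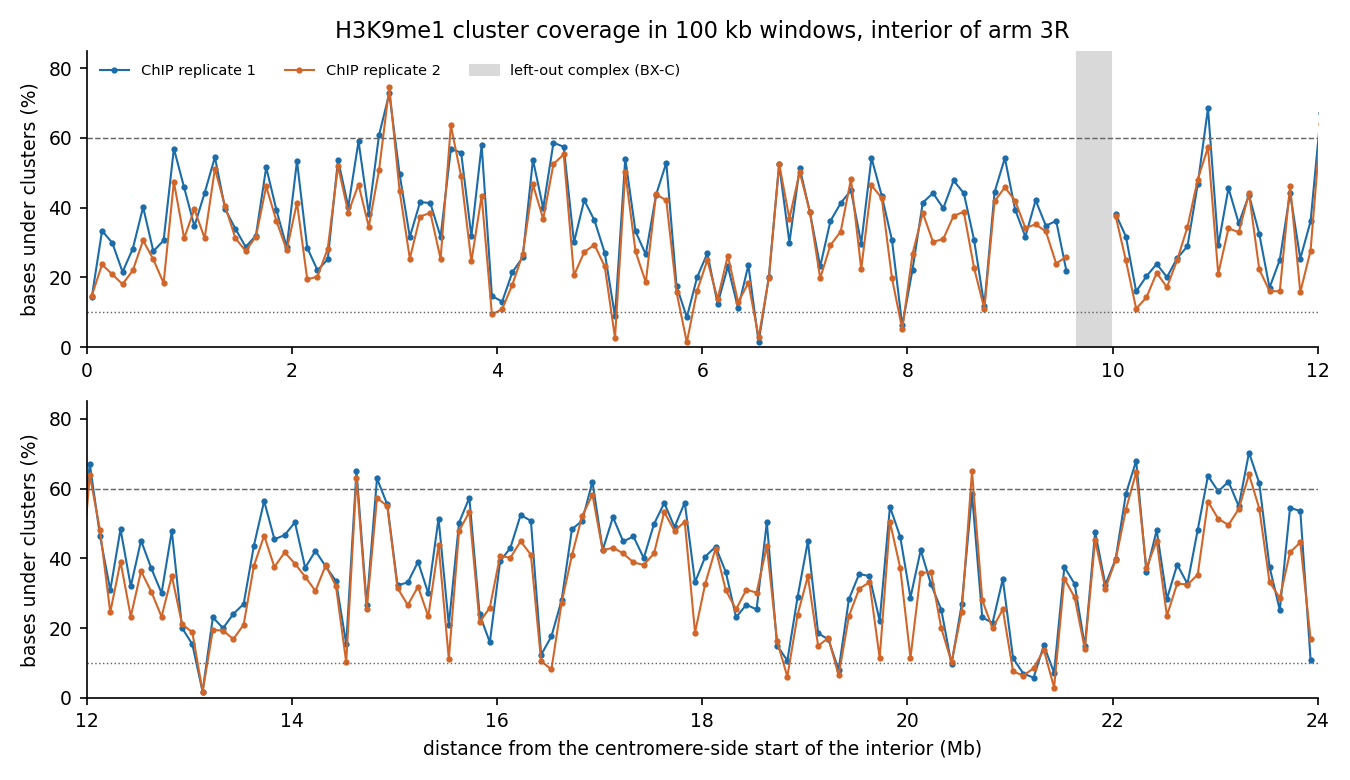
Percent of bases under H3K9me1 clusters (y axis) in each 100 kb window of the 3R interior, by distance in Mb from its centromere-side start (x axis), in ChIP replicate 1 (blue) and ChIP replicate 2 (orange). Dashed and dotted lines mark 60% and 10%, the grey band is the stretch left out, and both lines rise and dip together, from under 2% to over 70%.

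The densest windows lay in both stretches, but mostly on the telomere side of BX-C. Of the 10 highest, only those at 5730001 and 6330001 lay on the centromere side, which makes up 9.65 of the 23.7 Mb. In 5 of 236 windows (2.12%) at least 60% of bases lay under clusters in both replicates, against 1.73% of 579 windows in the interiors of 2L, 3L and X. The highest was 3R 5730001 to 5830000, with 72.8% in replicate 1 and 74.6% in replicate 2, a mean of 73.7 ± 1.28% (SD, n = 2). A few broad clusters filled it: replicate 1 had 6 clusters there, of which the widest were 30.0 kb (5778881 to 5808878), 20.0 kb (5734411 to 5754361) and 13.4 kb (5759378 to 5772821). Replicate 2 had 10, the widest being 24.1 kb (5780070 to 5804188), 19.9 kb (5734360 to 5754261) and 11.2 kb (5759220 to 5770395). The same broad domains were thus found in both libraries. In replicate 2 the 30.0 kb and 13.4 kb clusters of replicate 1 were each cut, and the 20.0 kb one was not. Replicate 2 also had a cluster at 5812383 to 5813725, where replicate 1 had none.

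The next windows reached similar coverage with more and narrower clusters. At 25010001 to 25110000 coverage was 68.0% in replicate 1 and 64.7% in replicate 2, with 15 and 13 clusters. At 26110001 to 26210000 it was 70.3% and 64.1%, with 16 and 17 clusters. At 14810001 to 14910000 it was 67.2% and 63.9%, with 17 and 19 clusters. These 3 windows held more than 12 clusters each in both replicates, where the densest window held 6 and 10. The window at 17410001 to 17510000 had 65.1% and 63.1%. The others among the 10 highest had at least 56.8% in both replicates and began at 23410001, 19710001, 17610001, 13710001 and 6330001. Replicate 2 was the higher at 23410001, with 58.5% in replicate 1 and 64.9% in replicate 2, and at 6330001, with 56.8% and 63.6%. Replicate 1 was higher by 11.2 percentage points at 13710001, where replicate 2 had 57.3%.

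The 10 sparsest windows lay on both sides of BX-C and held 1 to 6 clusters each. In 9 of 236 windows (3.81%) no more than 10% of bases were covered in either replicate, against 3.97% of the windows in the other interiors. The 3R windows leave out BX-C, where replicate 2 had no cluster besides 12548211 to 12549580. From the other interiors no inner stretch was left out, and how this bears on the shares was not tested. The lowest was 3R 15910001 to 16010000, covered to 1.79% in replicate 1 and 1.78% in replicate 2. Its single cluster was the same in both lists, at 15999136 to 16000929 in replicate 1 and at 15999074 to 16000850 in replicate 2. The window 9330001 to 9430000 was covered to 1.40% and 2.77%, but by different clusters: 1 at 9364729 to 9366127 in replicate 1, and 2 at 9334901 to 9336339 and 9413997 to 9415323 in replicate 2.

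Low coverage was close in both replicates in some windows and not in others. At 10730001 to 10830000 it was 6.22% in replicate 1 and 5.12% in replicate 2, at 23910001 to 24010000 it was 6.96% and 6.35%, and at 22110001 to 22210000 it was 8.03% and 6.43%. Replicate 1 was well above replicate 2 at 8630001, with 8.54% against 1.36%, at 7930001, with 8.84% against 2.63%, and at 24210001, with 7.22% against 2.96%. The window at 24010001 had 5.79% and 8.51%, and the one at 23210001 had 9.60% and 10.2%, just outside the 10% limit. In the series list these 10 windows were covered to between 10.8% and 29.4%, and the 10 highest to between 73.2% and 83.7%. The 2 sets of windows thus stood apart in the pooled list too, which was made from the same libraries.

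Replicate 1 covered more than replicate 2 in most windows. It was higher in 192 windows and lower in 44, with a median difference of 3.86 percentage points and a range of -9.97 to 17.3. In 26 windows the replicates differed by more than 10 points. Across the 236 windows, which share both libraries, Pearson's r was 0.948 and Spearman's rho 0.943, given as a description. Of the 20 highest windows of each replicate 15 were shared, and of the 20 lowest 16 were shared.

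**Figure D2:**
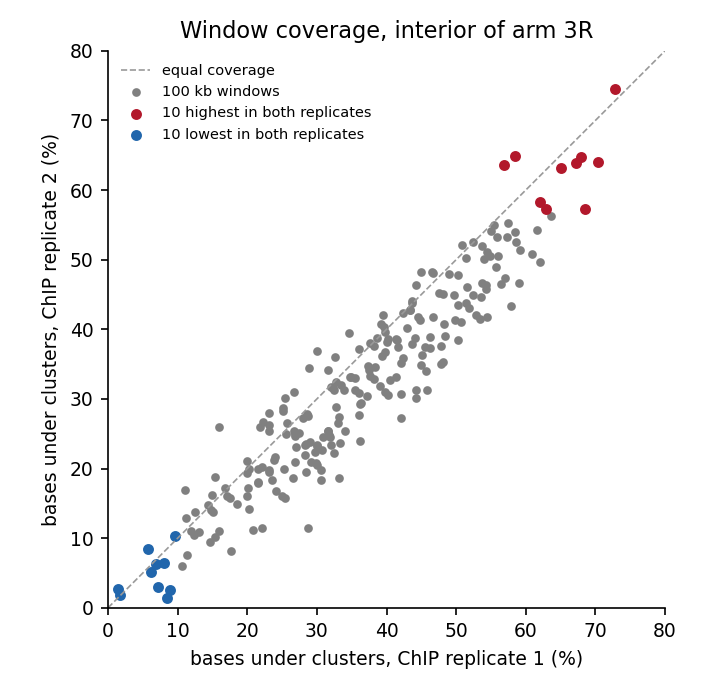
Coverage of the 236 windows in ChIP replicate 2 (y axis, percent of bases) against ChIP replicate 1 (x axis, percent of bases). Red and blue points are the 10 windows highest and lowest in both replicates, the dashed line marks equal coverage, and 192 windows lie below that line.

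On a larger scale coverage differed between blocks along the interior, and some dense blocks and some sparse blocks lay side by side. In 23 blocks of 1 Mb, coverage ran from 21.1% to 49.0% in replicate 1 and from 19.3% to 43.9% in replicate 2, with replicate 1 the higher in 22. The highest block was the most distal, 25810001 to 26810000, at 46.4 ± 3.63% (SD, n = 2), followed by 19810001 to 20810000 at 44.2 ± 3.80% and 24810001 to 25810000 at 44.1 ± 2.87%. The lowest block adjoined that last one: 23810001 to 24810000 had 20.2 ± 1.32%. Low blocks also lay on the centromere side of BX-C, at 8830001 to 9830000 with 25.6 ± 0.435% and at 7830001 to 8830000 with 26.7 ± 3.62%. The sparsest block of the interior thus bordered the pair of dense blocks at its distal end.

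Dense and sparse windows formed short runs. The coverage of a window correlated with that of the next one at r = 0.351 in replicate 1 and 0.337 in replicate 2 (234 pairs), and at 500 kb apart r was -0.0160 and -0.0363, given as descriptions. When the windows of each replicate were split by rank into 4 groups of 59, 48 windows were in the lowest group in both replicates and fell into 26 runs, of which 15 were single windows and 6 had 3 or more. The longest spanned 500 kb: 3R 23810001 to 24310000 at 8.55 ± 1.02% and 15810001 to 16310000 at 16.0 ± 1.15% (SD, n = 2). A run of 400 kb at 9130001 to 9530000 had 13.8 ± 0.399%.

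Windows in the highest group in both replicates numbered 49, in 34 runs, of which 25 were single windows. The longest run was 600 kb, 25710001 to 26310000, at 58.5 ± 4.94% (SD, n = 2). Runs of 300 kb lay at 5630001 to 5930000, with 58.9 ± 3.08%, and at 20410001 to 20710000, with 52.1 ± 2.17%.

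Changes between neighbouring windows could be abrupt and were seen in both libraries. The sign of the step between neighbours was the same in both replicates at 203 of 234 steps (86.8%). The largest step was at 17410001: coverage was 65.1% in replicate 1 and 63.1% in replicate 2 on its distal side, against 15.4% and 10.2% on its proximal side. The same dense window fell off on its other side, to 26.6% and 25.4% at 17510001 to 17610000. At 8030001 coverage was 54.0% and 50.1% distally and 8.84% and 2.63% proximally. These steps were picked for their size and carry no test.

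Dense windows held both more clusters and wider ones. Windows were sorted into the 4 groups by 1 replicate and described in the other. Coverage is made up of the number and width of clusters and was similar in both replicates (r = 0.948). Some rise in number or width from the lowest to the highest group therefore follows by construction. Sorted by replicate 1, the highest group held 16.1 clusters per window in replicate 2 and the lowest held 7.22, a difference of more than 2 times. The median width of a cluster was 2280.5 bp in the highest group, where the lowest had 1726.5 bp. Clusters of 5 kb or more made up 13.0% of clusters in the highest group and 2.35% in the lowest.

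The other direction gave the same picture. Sorted by replicate 2, the highest group held 16.4 clusters per window in replicate 1 and the lowest 8.42. Median width was 2431.5 bp in the highest group and 1823 bp in the lowest, and 16.8% and 1.61% of clusters were at least 5 kb wide. The authors' score, a signed value per cluster on a scale that is not given, had a median of 0.611 in the highest group and 0.550 in the lowest. Replicates sorted in this way still share the antibody and strain, and the labels state no separate cages for them. The groups are therefore described without a test.

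**Figure D3:**
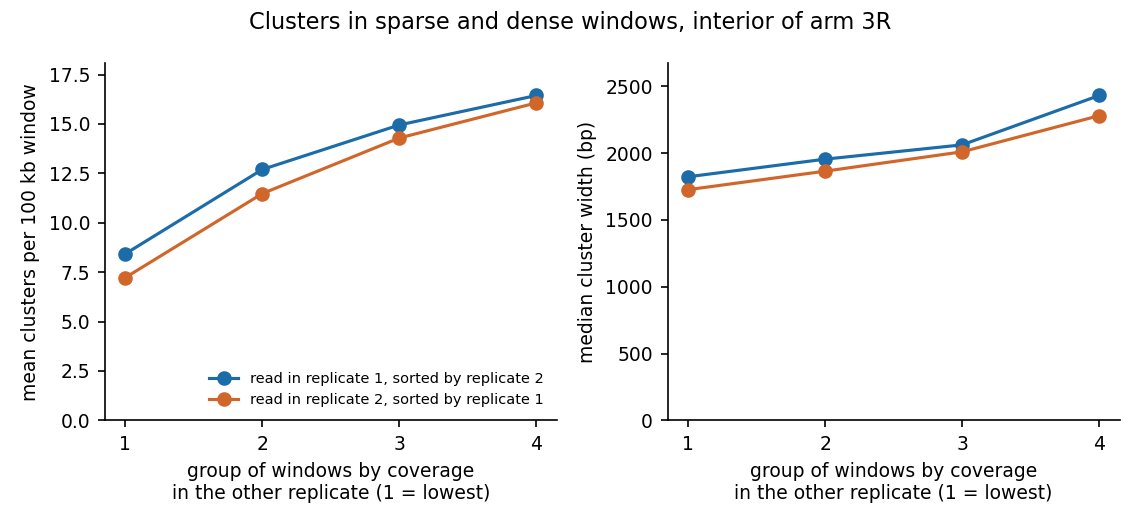
Mean number of clusters per 100 kb window (left) and median cluster width in bp (right) by group of windows. Windows were sorted by coverage in the other replicate (x axis, 1 is the lowest group), and both measures increase from group 1 to group 4 when read in replicate 1 (blue) and in replicate 2 (orange).

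Most clusters of the interior were short, and those of 2 to 5 kb held the largest share of cluster bases. Median widths of 2050 bp (replicate 1) and 1991.5 bp (replicate 2) gave a mean of 2021 ± 41.4 bp (SD, n = 2). The narrowest cluster was 1301 bp in both replicates and 1001 bp in the series list. Clusters under 2 kb made up 47.1% of clusters in replicate 1 and 50.3% in replicate 2 but 27.4% and 30.7% of cluster bases. Those of 2 to 5 kb held 46.9% and 47.6% of bases. Clusters of at least 5 kb were 9.25% and 7.46% of clusters and held 25.8% and 21.7% of bases. Those of at least 10 kb held 6.81% and 5.61%.

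Wide clusters scored higher and were found again in the other replicate. In replicate 1 the median score was 0.484 in clusters under 2 kb and 0.935 in those of 10 kb or more, and in replicate 2 it was 0.495 and 0.824. Across clusters of a library, width and score ranked together with rho of 0.714 and 0.674, given as a description. Of the clusters under 2 kb, 59.6% in replicate 1 and 74.2% in replicate 2 touched a cluster of the other replicate by at least 1 bp. From 5 kb upward 100% did, 288 clusters in replicate 1 and 217 in replicate 2. A wide cluster also has more bases with which to touch another.

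**Figure D4:**
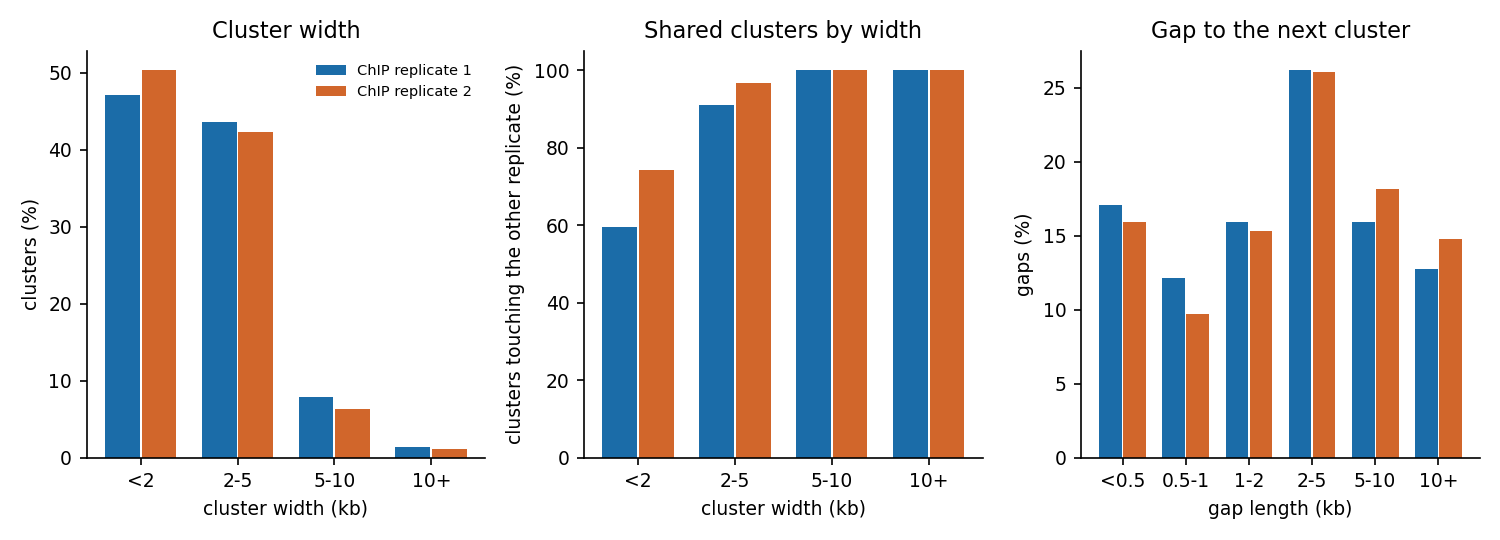
Bars give, for ChIP replicate 1 (blue) and ChIP replicate 2 (orange), the percent of interior clusters in each width class in kb (left) and the percent of each class that touches a cluster of the other replicate (middle). The right panel gives the percent of gaps between neighbouring clusters in each length class in kb, with gaps of 2 to 5 kb the commonest class in both.

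The broadest clusters, of 10 kb or more, numbered 43 in replicate 1 and 33 in replicate 2. Their median width was 12.5 kb in replicate 1 and 12.2 kb in replicate 2. Of them, 22 in each replicate touched a cluster that was also at least 10 kb wide in the other, which is 51.2% and 66.7%. They were unevenly placed: 7 of 23 blocks of 1 Mb held none in replicate 1 and 8 held none in replicate 2, and 3 blocks held none in either. The block 25810001 to 26810000 held 6 in replicate 1 and 4 in replicate 2, and 4830001 to 5830000 held 4 and 5. The sparsest block, 23810001 to 24810000, still held 3 and 4.

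Clusters of the interior were spaced a few kb apart, with a long tail of larger gaps. The median gap from the end of a cluster to the start of the next came to 2405.5 bp (replicate 1) and 2732.5 bp (replicate 2), a mean of 2569 ± 231 bp (SD, n = 2). Between midpoints the median distance was 5.36 kb and 5.63 kb. Gaps under 500 bp made up 17.1% and 15.9% of gaps, and 149 gaps in replicate 1 and 120 in replicate 2 were under 100 bp. Gaps of 10 kb or more were 12.7% and 14.8% of gaps but held 51.7% and 55.2% of the bases between clusters.

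Many short gaps were closed in the series list. Of the gaps under 500 bp, series clusters filled 53.7% in replicate 1 and 65.8% in replicate 2 completely. They filled 11.3% and 14.8% of gaps of 1 to 2 kb, and none of 5 kb or more in either replicate. The number and width of clusters therefore depend on how neighbouring clusters are joined. A gap's length ranked weakly with that of the next gap, with rho of 0.110 and 0.112, and a cluster's width with its neighbour's, with rho of 0.115 and 0.125.

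Stretches with no cluster in either replicate were mostly short too. There were 3355 of them with a median of 2093 bp, 13.9 Mb in all. Of these, 95 were at least 20 kb long and took 12.3% of the interior, and 8 were at least 50 kb long and took 2.13%. The longest was 3R 15908474 to 15999073, 90.6 kb, in the sparsest window. It was followed by 16149587 to 16215708 (66.1 kb), 24193295 to 24259138 (65.8 kb), 21613838 to 21677732 (63.9 kb) and 8569671 to 8626229 (56.6 kb). Series clusters covered 8.68%, 10.3%, 14.5%, 15.9% and 6.11% of these 5, in the same order, and none of the stretches of 20 kb or more was free of series clusters.

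Within a single replicate the longest gaps were longer. In replicate 1 the longest was 90.7 kb, at 15908474 to 15999135, and 1 cluster of replicate 2 reached into it by 62 bp. In replicate 2 the longest was 127.3 kb, at 8569118 to 8696401, and replicate 1 had 4 clusters wholly inside it, with a total width of 6138 bp and scores up to 0.644. A further 2 clusters of replicate 1 reached into its ends by 555 bp in all. The next in replicate 2, 124.9 kb at 15874183 to 15999073, held 1 cluster of replicate 1, 1850 bp wide, and another reached into it by 457 bp. Both of these long gaps of replicate 2 thus held narrow clusters found in replicate 1 alone.

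The widest regions held several replicate clusters each. Regions were taken from the series list where each replicate covered at least 50% of the bases, which left 1809 of 4433 clusters (40.8%), with a median width of 3204 bp. The widest, 3R 25077752 to 25138460, was 60.7 kb and covered to 95.8 ± 2.35% (SD, n = 2). It was made of 5 clusters in replicate 1, the largest 19.9 kb, and 7 in replicate 2, the largest 15.8 kb. Next came 20817265 to 20848687, 31.4 kb, covered to 86.7 ± 6.03% (SD, n = 2) by 4 clusters in replicate 1 and 3 in replicate 2. The region 5778864 to 5809054, 30.2 kb, lay in the densest window and was nearly a single cluster, with 1 in replicate 1 and 2 in replicate 2, covered to 97.0 ± 3.30%.

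The remaining 2 of the 5 widest lay in the telomere-side stretch. They were 20566867 to 20593455, 26.6 kb, covered to 87.8 ± 5.84% (SD, n = 2), and 19721718 to 19748244, 26.5 kb, covered to 92.8 ± 0.413%. Series clusters of 20 kb or more numbered 7 in the interior, and each replicate covered at least 50% of the bases of each. Such broad regions were thus pieces of enrichment separated by short gaps rather than uninterrupted clusters in the replicate lists, the region at 5778864 being the closest to an exception among the 5.

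Of the same 1809 regions, the 5 with the highest scores were uninterrupted in the replicate lists. Their widths of 4.85 to 15.1 kb were above the median of 3204 bp. That they were narrower than the 5 widest follows from how those were picked. Higher series scores in the interior, up to 3.01, belonged to clusters outside this set. The highest score in this set was at 3R 18581114 to 18596260, 15.1 kb, with 1.32 in the series list, 1.40 in replicate 1 and 1.25 in replicate 2. It was matched by 1 cluster of 14.8 kb in replicate 1 and 1 of 14.5 kb in replicate 2. The next, 18295745 to 18300589, was 4.85 kb wide with scores of 1.15 in the series list, 1.32 in replicate 1 and 1.09 in replicate 2. The region 26420030 to 26425715, 5.69 kb, had 1.14, 1.20 and 1.11. These were followed by 12272511 to 12279263, 6.75 kb, with 1.12, 1.21 and 1.07, and by 16610011 to 16619298, 9.29 kb, with 1.08, 1.18 and 1.06. All 5 were a single cluster in each replicate, each scored higher in replicate 1 than in replicate 2, and each replicate covered at least 92.4% of each.

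Clusters of both replicates largely coincided, and their ends were close. Shared bases came to 6.33 Mb, or 73.9% of replicate 1 and 83.4% of replicate 2, and 0.644 of the bases in either replicate were in both (the Jaccard index). Of the clusters, 77.1% in replicate 1 and 85.6% in replicate 2 touched one of the other replicate. In 1893 pairs each cluster met only the other, which is 60.8% of replicate 1 and 65.1% of replicate 2. In these pairs the starts lay a median of 138 bp apart and the ends 136 bp, and the midpoints 132 bp, with 90% of midpoints within 662 bp. The replicate 1 cluster was the wider in 61.5% of pairs, by a median of 100 bp over all pairs.

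Clusters found in a single replicate were narrower and scored lower. The 714 of replicate 1 had a median width of 1562 bp, where its shared clusters had 2335.5 bp, and a median score of 0.503, where the shared had 0.602. The 419 of replicate 2 had 1474 bp and 0.517, where its shared clusters had 2131 bp and 0.573. The nearest cluster of the other replicate lay a median of 1774 bp and 1652 bp away, and for 54 clusters of replicate 1 and 27 of replicate 2 it was at least 10 kb away. Series clusters touched 99.4% and 98.6% of these single clusters.

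The highest-scoring single clusters lay a few kb or less from a cluster of the other replicate. In replicate 1 they were 3R 18308385 to 18309700 (score 0.863), 20663343 to 20665770 (0.802) and 23002719 to 23004805 (0.791), each 1077 to 4557 bp from a cluster of replicate 2. In replicate 2 they were 8295744 to 8297481 (2.27), 25197103 to 25198614 (0.779) and 21338720 to 21340880 (0.741), each 2144 to 4514 bp from a cluster of replicate 1. Of these 6 distances 5 were above the medians of 1774 and 1652 bp for all single clusters. The score of 2.27 was the highest in the interior in replicate 2, where the next was 1.25.

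The series list covered 54.9% of the interior. Of its bases there, 48.5% lay under clusters in both replicates, 26.2% in a single replicate and 25.3% in neither. Series clusters touching both replicates numbered 2071, at a median of 3352 bp wide and a score of 0.490. Those touching neither numbered 1371, 30.9% of the series clusters of the interior, at a median of 1288 bp wide, below the narrowest replicate cluster, and a score of 0.358.

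The coverage of the 3R interior lay between those of the 3L and 2L interiors in both replicates, and above that of X. Each of the others was taken without 3 Mb at its centromeric and 1 Mb at its telomeric end. No inner stretch was left out of them, as the cluster-poor BX-C was on 3R, and how this bears on the differences was not tested. Coverage was 36.1% and 32.0% in the 3R interior, in replicates 1 and 2, against 34.5% and 30.1% on 2L, a difference of 1.76 ± 0.210 percentage points (SD, n = 2). It was 37.6% and 32.9% on 3L, a difference of -1.20 ± 0.373, and 32.1% and 29.1% on X, a difference of 3.40 ± 0.812. The order was the same in both replicates, with 3L highest, then 3R, 2L and X. The difference from X turned negative on the series list, at -0.239 points, and for clusters scoring at or above their list's median, at -7.52. With that score filter the difference from 3L was -0.0711 ± 0.686 (SD, n = 2), at -0.556 in replicate 1 and 0.414 in replicate 2, so that order did not hold in both replicates.

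The median gap was shortest on 3L, then 3R, 2L and X in both replicates, while median widths took the order of coverage in replicate 1 and not in replicate 2. The median gap of 2405.5 bp and 2732.5 bp in the 3R interior differed from that of 2L by -117.5 ± 21.2 bp, from that of 3L by 236 ± 40.7 bp and from that of X by -429.5 ± 104 bp (SD, n = 2). The median width of 2050 bp and 1991.5 bp on 3R stood beside 2041 bp and 1960.5 bp on 2L, 2064 bp and 1967 bp on 3L, and 2017 bp and 1969 bp on X. The SD over 100 kb windows of 15.2 and 14.5 percentage points on 3R stood beside 15.3 and 14.4 on 2L, 15.1 and 13.7 on 3L, and 13.7 and 13.0 on X. The median score was 0.576 and 0.563 on 3R, 0.580 and 0.561 on 2L, and 0.579 and 0.563 on 3L. On X it was higher, at 0.754 and 0.715.

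At a limit of 10 kb, broad clusters were more frequent in the 3R interior than in the other 3 interiors in both replicates. Clusters of 10 kb or more numbered 1.81 and 1.39 per Mb on 3R, against 1.26 and 0.684 on 2L, 1.31 and 0.584 on 3L, and 0.977 and 0.597 on X. The differences were 0.627 ± 0.111, 0.651 ± 0.219 and 0.813 ± 0.0291 clusters per Mb (SD, n = 2). At a limit of 5 kb the 3R interior was not the highest in replicate 1. Such clusters numbered 12.1 and 9.14 per Mb on 3R and 12.4 and 8.03 on 3L, in replicates 1 and 2. Those on 2L and X were below 3R in both replicates. None of the 21 differences between interiors, over 7 measures, can pass a test with 2 libraries. An exact two-sided sign-flip permutation test over the replicates gave p = 0.5, the smallest it allows, for the 18 with the same sign in both replicates (Benjamini-Hochberg adjusted p = 0.583).

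**Figure D5:**
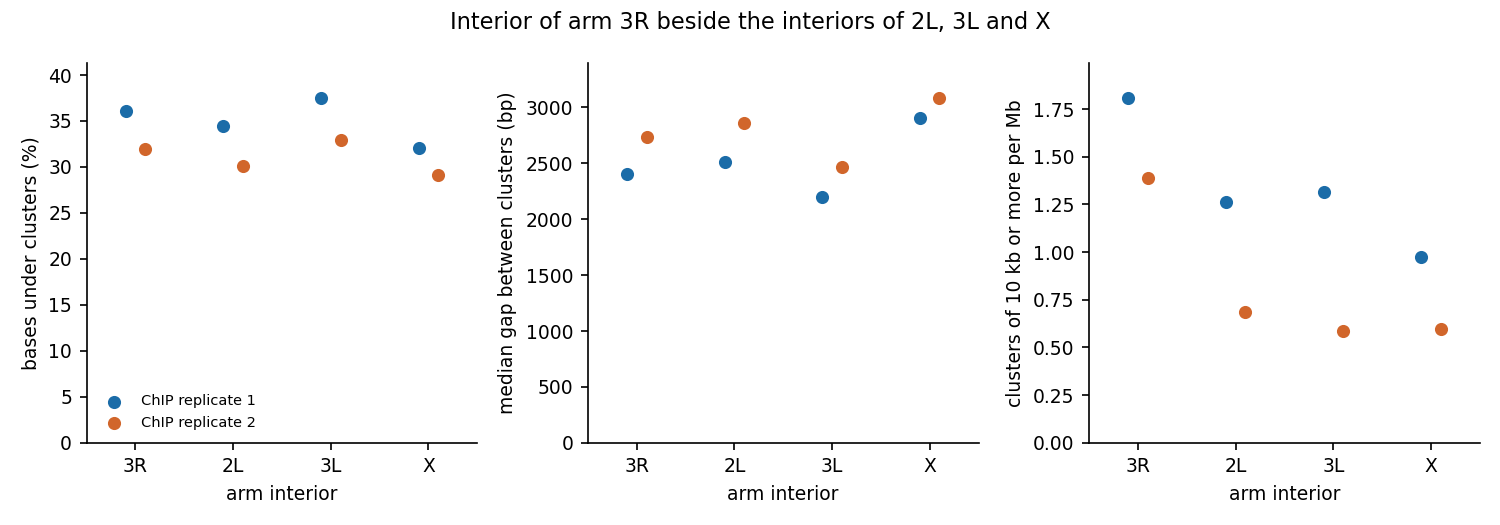
Coverage in percent of bases, median gap in bp and clusters of 10 kb or more per Mb (y axes, from left to right) in the interiors of 3R, 2L, 3L and X (x axes). Each point is 1 ChIP replicate, and in the right panel both points of 3R lie above those of the same replicate on the other arms.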

How the data were processed

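H3K9me1 ChIP and input libraries of Oregon-R head nuclei were sequenced. The submitters' processing notes name Bowtie 0.12.7 (aligner), and the labels tie every input to the list of 1 ChIP library. The deposited lists give positions on FlyBase release 5 and a signed score per region, per the file headers. The cluster caller, its threshold, the score's scale and how the series list was made are not given in the sources used here. Within a list, that deposited score ranks, filters or describes clusters. Library depth is unknown, so no counting interval is given, and the inputs' reads were not analysed here.

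Coverage counts bases of all enriched clusters within the bounds, and all other values use clusters with midpoints inside. Named were the 10 highest and 10 lowest windows by the less extreme replicate, the 5 widest and 5 highest-scoring series clusters with at least 50% covered in each replicate, the 5 longest shared cluster-free stretches, and the 3 highest-scoring unshared clusters per replicate. Members and lists were chosen with earlier results of these data known. The steps, runs, blocks, groups by rank and broad-cluster counts were chosen after the data were seen. The interval functions were checked on 5 simulated lists and returned all 35 known quantities exactly. Python 3.11.15, NumPy 2.4.6, pandas 2.3.3, SciPy 1.17.1 and Matplotlib 3.10.9 were used.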

Additional observations from a re-analysis of the deposited data

Results flagged for a closer look

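The series list holds 7 regions typed as depleted within the 3R interior, of 31 in the whole list. Of the enriched clusters of that list the interior held 20.6%, so the count of depleted regions is not read as particular to 3R. Each replicate list holds 0 depleted regions there, but the whole list of replicate 1 holds only 1 and that of replicate 2 holds 0. The comparisons of enriched clusters do not use the 7 regions. Their scores ran from -0.149 at 13242676 to 13244261 to -0.0250 at 9086818 to 9088162, and their widths from 1345 to 1602 bp. Of the 7, 3 touched an enriched cluster of replicate 1 and 2 touched one of replicate 2, with 4 touching either. The region at 16305869 to 16307375 touched a cluster in each replicate.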

How the results depend on the processing

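Of the alternative values 27 were counted as unchanged, 22 as moved and 2 as reversed. Differences between interiors were judged by their sign, and other values with a replicate SD by whether they moved less than it. Window counts were judged by their ratio to the reported count. For the Jaccard index and the share of series bases, which have no SD, any change counted as a move. For clusters scoring at or above their list's median, coverage was 19.9%, clusters per Mb 52.7, median width 2991 bp, median gap 7408.5 bp, the Jaccard index 0.551, and 40.7% of series bases lay in both replicates. Fewer clusters enter by construction. The difference from X reversed to -7.52 points there and to -0.239 on the series list. The score limit was the median of each whole list, over all arms. On X the 25th percentile of the score was 0.661 in replicate 1 and 0.628 in replicate 2, above the 3R medians of 0.576 and 0.563. The cause of either reversal was not tested. The difference from 3L was -0.0711 ± 0.686 (SD, n = 2) with the score filter, and its sign differed between replicates. Clusters of at least 2 kb covered 24.2%. With clusters up to 500 bp apart joined there were 106 per Mb, with a median width of 2177 bp, a median gap of 3416.5 bp and a Jaccard index of 0.647. On the series list coverage was 54.9%, clusters per Mb 187 and the median gap 1234 bp. The SD over windows was 17.8 points at 50 kb and 12.2 at 200 kb. High windows in both replicates numbered 29 at 50%, 1 at 70% and 9 with windows shifted by 50 kb, and low windows 2 at 5% and 33 at 20%. With 50% reciprocal overlap 68.1% of clusters were shared. Leaving out each replicate gave coverage of 32.0% to 36.1%, 122 to 131 clusters per Mb, widths of 1991.5 to 2050 bp, gaps of 2405.5 to 2732.5 bp, an SD over windows of 14.5 to 15.2 points, and differences of 1.61 to 1.91 points from 2L, -1.46 to -0.933 from 3L and 2.83 to 3.98 from X. With 2 replicates such values lie within the SD by construction. No paired analysis was possible because the replicate numbers pair ChIP with input libraries, and the lists used here hold values of the ChIP libraries alone. The differences between arm interiors were taken within each ChIP library.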

Other observations

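The 3 highest series scores of the 3R interior lay within 27.4 kb, a stretch chosen after the scores were seen. They were 3.01 at 3R 8322124 to 8323124, 2.55 at 8300487 to 8301496 and 1.99 at 8295726 to 8297584, and the next in the interior was 1.51. The widths were 1001, 1010 and 1859 bp. No cluster of replicate 1 touched any of them, and replicate 2 had a cluster on the last alone, 8295744 to 8297481, with its highest score in the interior, 2.27. Both replicates had clusters just distal to the stretch, at 8328205 to 8331058 in replicate 1 with a score of 0.882 and at 8328224 to 8330909 in replicate 2 with 0.773. In the whole series list 5 clusters share the score of 3.01 exactly, all between 1001 and 1080 bp wide, 1 of them on 3R.

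Scores repeated between clusters in the replicate lists as well. In the interior 22.0% of replicate 1 clusters and 26.1% of replicate 2 clusters had a score that another cluster of the interior also had. The commonest was 0.503 in replicate 1, on 46 clusters of 1309 to 3483 bp, and 0.603 in replicate 2, on 43 clusters of 1317 to 3720 bp.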
